A study of Mus musculus with 7 samples.

Results

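The 35 genes described here encode proteins that license, copy and repair DNA in S phase, make its nucleotides or pack the new strands. They were chosen by symbol, with earlier results of these data known, and all 35 were found among the 31053 genes counted. Single cells of mouse brain were profiled with the 10x 3' kit, which tags each captured RNA with a unique molecular identifier (UMI), in 7 libraries. The 4 early libraries were cortex at postnatal days 2, 7 and 15 (P2, P7, P15) and the microdissected dorsal and lateral ventricular-subventricular zone at P7 (P7 SVZ). The 3 adult libraries were P60 cortex, P60 grey matter (tissue above the cortical white matter) and P60 white matter (tissue directly above the lateral ventricles, with corpus callosum and ventricular-subventricular zone). The cortex pieces reached down to the lateral ventricles and held all 3 zones. P7 SVZ came from C57BL/6 mice and the other libraries from CD1 mice. The labels name no transgene, mutation or treatment and do not say that libraries came from separate animals, so p-values measure the spread between these libraries, which may be technical.

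Before S phase, Cdc6 and Cdt1 load the Mcm2-7 helicase onto origins of replication. Cdc45 and the GINS complex (Gins2) turn it on, primase and polymerase alpha (Prim1, Pola1) start each strand, and the clamp Pcna, loaded by the Rfc complex, holds the polymerases. Fen1 and Lig1 join the fragments of the lagging strand, Rpa2 is part of the single-strand binding protein, and Clspn and Tipin guard the fork. Rrm1, Rrm2, Tyms and Tk1 supply deoxynucleotides, Chaf1a and Chaf1b place histones, Slbp handles histone mRNA, and Uhrf1 and Hells act in copying DNA methylation. In the postnatal forebrain, oligodendrocyte precursor cells (OPCs), neural precursors lining the ventricles and their neuroblast progeny are known to divide, and in early postnatal life microglia and astrocytes also do.

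Many S phase genes are targets of E2F transcription factors, so member promoters (250 bases before to 50 after the start, RefSeq, GRCm38.p6) were searched on both strands for 4 E2F words: TTTCCCGC, TTTGGCGC, TTTCGCGC and TTTGCCGC. A promoter was at hand for 29 of the 35 members, and 13 of them (44.8%) held a word, against 2.60% of 27025 genes and 3.65% of the 16828 genes with a promoter of at least 50% GC. The words were in 7 of 13 replication fork genes, 3 of 3 licensing genes (Cdc6, Cdt1, Dtl), 3 of 7 genes of chromatin copying and repair, 0 of 4 nucleotide supply genes and 0 of 2 E2F genes. A GENCODE M21 transcript start was found near the start position in 25 of the 34 member promoters. The promoters searched for Cdc6, E2f1 and Mcm7 lay inside the annotated genes and did not cover the annotated gene starts. The same holds for the promoters with a word in Lig1 and Uhrf1. The CCAAT motif, searched the same way, was in 19 of 29 members (65.5%) and in 41.1% of all genes. A match is a run of letters, not a binding site. Below are Pclaf, the member with the lowest adjusted p between stages in OPC-like cells, and Mcm6, the member with the most words. They are followed by Rrm2, which moved like Pclaf and holds no word, and Pcna, which holds no word and was not called between stages. Each is written 5' to 3' on the gene's strand, and capitals mark the E2F words. In Mcm6 the first capital run is 2 overlapping words.
Pclaf (chr9:65890073-65890372, plus strand): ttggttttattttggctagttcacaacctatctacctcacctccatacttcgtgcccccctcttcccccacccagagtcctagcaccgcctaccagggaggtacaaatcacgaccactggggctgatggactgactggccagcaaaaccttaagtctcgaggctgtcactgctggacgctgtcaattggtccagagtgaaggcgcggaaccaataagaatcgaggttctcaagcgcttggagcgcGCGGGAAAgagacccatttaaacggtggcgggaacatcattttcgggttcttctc
Mcm6 (chr1:128359656-128359955, minus strand): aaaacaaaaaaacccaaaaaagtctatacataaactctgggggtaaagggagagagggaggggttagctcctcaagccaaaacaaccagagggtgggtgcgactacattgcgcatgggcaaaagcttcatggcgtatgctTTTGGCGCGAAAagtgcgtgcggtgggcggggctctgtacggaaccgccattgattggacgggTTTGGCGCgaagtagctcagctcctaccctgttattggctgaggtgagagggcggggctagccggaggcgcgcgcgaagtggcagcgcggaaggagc
Rrm2 (chr12:24708004-24708303, plus strand): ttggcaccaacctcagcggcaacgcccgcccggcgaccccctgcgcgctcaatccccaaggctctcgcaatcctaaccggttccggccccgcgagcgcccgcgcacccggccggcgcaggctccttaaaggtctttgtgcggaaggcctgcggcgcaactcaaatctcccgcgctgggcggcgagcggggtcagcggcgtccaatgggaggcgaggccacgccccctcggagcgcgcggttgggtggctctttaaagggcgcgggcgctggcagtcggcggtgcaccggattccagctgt
Pcna (chr2:132253131-132253430, minus strand): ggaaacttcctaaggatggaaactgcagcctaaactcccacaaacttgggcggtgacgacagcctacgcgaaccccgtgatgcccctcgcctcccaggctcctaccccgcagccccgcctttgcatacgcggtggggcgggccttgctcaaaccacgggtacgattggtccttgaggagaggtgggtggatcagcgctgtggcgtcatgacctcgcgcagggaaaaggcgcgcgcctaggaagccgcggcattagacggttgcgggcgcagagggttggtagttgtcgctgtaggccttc

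The libraries held 2127 to 6379 barcodes and 10074763 to 45668007 UMIs. After cells with under 500 genes, over 10% mitochondrial UMIs or a doublet call were left out, 20697 cells remained, with median UMIs per cell of 2791 (P60 cortex) to 9530.5 (P2 cortex). P7 SVZ lost 2132 barcodes to the mitochondrial limit, the most of any library, and pairs of libraries shared 0 to 28 barcodes. Cells were clustered without the members, other replication and cell cycle genes and histone genes, and clusters were named "X-like" from marker lists. Clusters left out of every class because only up to 50% of their class's markers were raised, a limit set after seeing the data, held 10.6% of early and 0.871% of adult cells. A further 4 clusters (650 cells) stayed unnamed for low depth or for leading genes of another class, 1 of them 279 P60 grey matter cells with 9 of 9 microglia markers raised. To compare shares at equal depth, each cell was thinned to 2000 UMIs, and a replication call meant at least 3 UMIs of the 35 members. Thinning left out 1687 shallower cells, 632 of them in P60 cortex.

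Replication calls were most frequent in neural precursor-like and neuroblast-like cells, intermediate in OPC-like cells and rare in committed precursor-like and mature oligodendrocyte-like cells. Over all cells, calls were made in 11.5% of P2 cortex, 24.9% of P7 cortex, 22.4% of P7 SVZ and 7.35% of P15 cortex cells. At P60 they were made in 3.17% of cortex, 10.2% of grey matter and 8.29% of white matter cells. The cells behind these shares differed by library. OPC-like cells made up 49.0% of the calls in P15 cortex, neuroblast-like cells 72.8% in P60 white matter, microglia-like cells 85.0% in P60 grey matter, and neural precursor-like cells 34.3% in P7 SVZ and 30.1% in P2 cortex.

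At P2 a call was made in 42.0% of neural precursor-like cells (95% exact interval 36.0 to 48.3). At P7 it was made in 57.7% of those from cortex (51.7 to 63.6) and 69.4% of those from SVZ (64.5 to 74.0), and at P15 in 45.2% (29.9 to 61.3). All intervals here cover counting error only. The share of P7 SVZ was the highest of the 4, and its interval lay above those of the other libraries. The libraries sat in different clusters, however. P7 SVZ was almost wholly cluster 16 (69.4%), while cluster 0 had 74.8% at P2 and 80.3% in P7 cortex, and cluster 5 had 18.8 and 29.2%. The P7 SVZ share was thus between those of the 2 cortex clusters. Neuroblast-like cells had a call in 20.4, 53.2, 33.1 and 47.8% at P2, P7 cortex, P7 SVZ and P15, and in 46.2% of P60 cortex and 36.8% (31.2 to 42.6) of P60 white matter, so adult libraries lay within the early range. Within that class, shares differed by cluster and, in 1 cluster, by library. Cluster 8 had 88.7, 84.6 and 82.7% in P7 cortex, P15 cortex and P60 white matter, cluster 9 had 87.7% in P7 SVZ, and cluster 24 had 18.5 to 25.4% in 4 libraries. Cluster 12, the one with the most cells, had a call in 18 of 120 cells at P2 (9.14 to 22.7%), 49.3% (44.2 to 54.5) in P7 cortex and 33.3% (16.5 to 54.0) at P15.

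OPC-like cells had a call in 25.1% (18.8 to 32.3) at P2, 25.1% (20.7 to 30.03) in P7 cortex, 32.1% (28.2 to 36.3) in P7 SVZ and 20.1% (16.7 to 23.9) at P15. At P60 the share was 9.21% (3.78 to 18.1) for white matter, 12.5% (6.83 to 20.4) for grey matter and 11.96% (6.12 to 20.4) for cortex. The groups did not overlap, with means of 25.6 ± 4.94% (SD, n = 4) and 11.2 ± 1.76% (n = 3), but the intervals of P15 and each adult library did. Clusters 6 and 45 held most early cells and cluster 26 most adult cells, and cluster 26 alone had 24.5% in P7 cortex, 21.4% in P15 cortex and 9.33 to 12.5% in the adult libraries. Without thinning the shares were 49.7, 61.5, 64.7 and 41.5% early and 23.2, 38.8 and 20.7% adult, with median UMIs of 5620 to 7948 and 3716 to 5348. Mature oligodendrocytes are known as postmitotic cells, and in the class named after them the share was 0 of 201 at P15 (up to 1.82%), 1.99% in P60 cortex and 2.08% in P60 white matter at median UMIs of 23317.5, 4732 and 4960. In P60 grey matter it was 3 of 31 cells (9.68%, 2.04 to 25.7), an interval that holds the OPC-like share of that library, so the 2 were not told apart there.

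Few committed precursor-like cells, the stage after OPCs in the oligodendrocyte lineage, had a call. Calls were made in 1.44% of them in P7 cortex, 4.11% in P7 SVZ, 1.01% at P15, 0 of 35 cells in P60 cortex (up to 10.0%) and 0 of 49 in P60 white matter (up to 7.25%). These cells were deeper than OPC-like cells, with median UMIs of 6009 to 16304. In P7 cortex, P7 SVZ and P15 cortex their intervals lay below those of OPC-like cells from the same library.

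Outside the lineage, microglia-like cells had the widest range. They had a call in 41.1% (35.9 to 46.5) of P7 cortex and 25.8% (18.5 to 34.1) of P7 SVZ, but in 1.79% (0.817 to 3.37) of P15 cortex cells. The adult shares were 3.05% in cortex, 12.4% (10.5 to 14.5) in grey matter and 3.10% in white matter, so that P15 lay with the adult libraries and P60 grey matter above the other adult ones. The libraries did not share clusters evenly. P60 grey matter was mostly cluster 37 (1062 cells, 12.9% with a call), whose leading genes include the immune activation genes Il1a, Cd83 and Tnf, whereas P60 cortex and white matter were mostly clusters 36 and 49. In those 2 clusters P60 grey matter had 0 of 23 and 1 of 29 cells with a call. Astrocyte-like cells had a call in 7.41% (5.99 to 9.05) of P7 cortex and in 0.821 to 2.53% of the other 5 libraries. Excitatory intermediate precursor-like cells, which give rise to cortical neurons, had a call in 14.2% at P2 and 33.0% in P7 cortex, and ependymal-like cells in 11 of 38 in P7 cortex (28.9%, 15.4 to 45.9).

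Of the 35 members, 6 exceed 10 CPM (a gene's UMIs scaled by the total UMIs of the summed class) in mature oligodendrocyte-like cells by their median over libraries: Pcna, Rfc2, Rpa2, Lig1, Tipin and Slbp. With calls made on the other 29, a choice made after seeing the data, the OPC-like share was 18.7, 19.7, 27.2 and 15.04% early and 4.35, 6.73 and 7.89% adult. The share in mature oligodendrocyte-like cells was then 0 to 0.231%. In microglia-like cells it was 32.8% in P7 cortex and 21.2% in P7 SVZ, and in P60 grey matter it dropped from 12.4 to 0.727%.

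**Figure D1:**
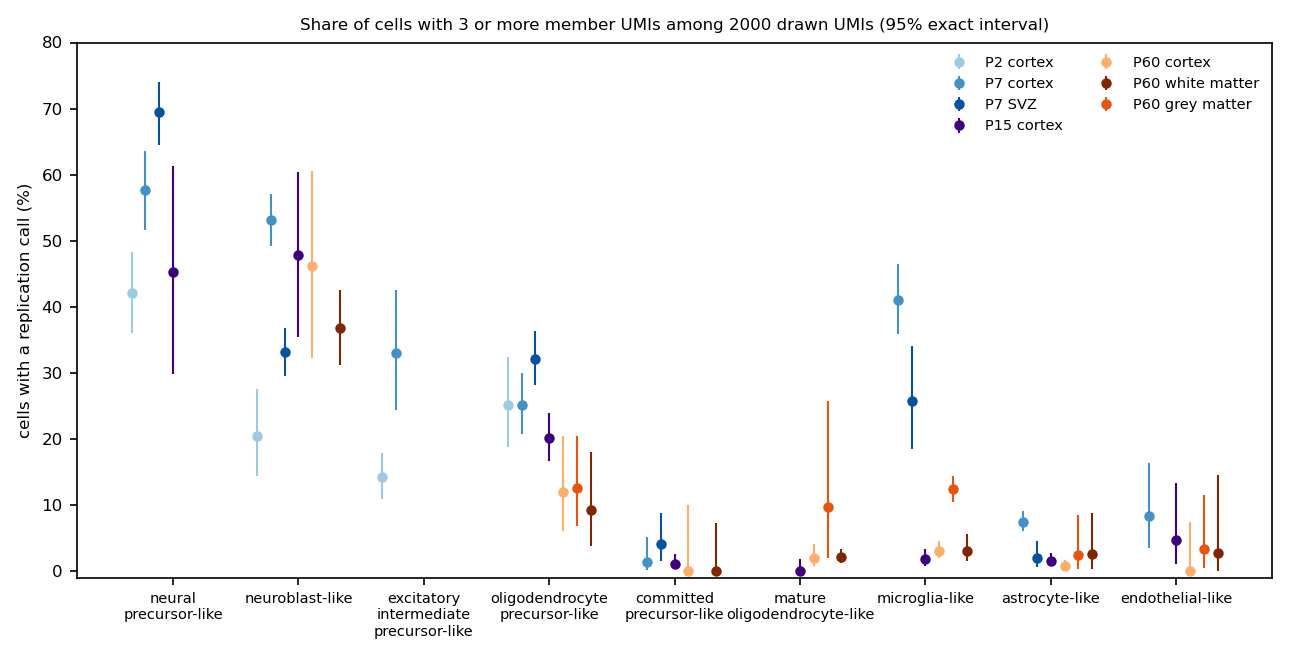
Share of cells with a replication call (at least 3 member UMIs among 2000, y axis, %) in 9 classes (x axis). Each point is 1 library, in the colour of the key, and bars are 95% exact intervals. OPC-like adult libraries (9.21 to 12.5%) lie below the early ones (20.1 to 32.1%), neuroblast-like adult libraries lie within the early range, and microglia-like cells run from 1.79 to 41.1%.

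A replication call does not say how far a cell has gone. A second call, from 50 mitotic genes that include no member and needing at least 2 UMIs, showed how often both came together. Both calls were made in 10.5, 16.0, 19.3 and 9.55% of early OPC-like cells and in 2.17, 1.92 and 3.95% of adult ones. The share with a replication call alone was 9.78% in P60 cortex and 10.6% in grey matter, within the early range of 9.14 to 14.6%, and 5.26% in white matter, below it. In P60 grey matter, 0.273% of microglia-like cells had both calls and 12.1% the replication call alone. In P7 cortex, 21.6% of microglia-like cells had both calls.

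Levels summed per class and library gave a similar order. By mean CPM over libraries, among 13 classes with at least 2 libraries, the highest class was neural precursor-like for 22 members, neuroblast-like for 12 and committed precursor-like for 1 (E2f8). OPC-like cells had rank 3 for Rpa2 and Lig1, rank 4 for 27 members, rank 5 for 4, rank 6 for Cdt1 and rank 8 for E2f1. Pclaf, which encodes a partner of the Pcna clamp, was at 502 ± 166 CPM (SD, n = 6) in neuroblast-like and 465 ± 123 CPM (n = 4) in neural precursor-like cells. These 2 classes did not differ beyond their spread. Rrm2, the regulated subunit of ribonucleotide reductase, was at 256 ± 67.7 CPM in neural precursor-like and 244 ± 140 CPM in neuroblast-like cells, again within the spread.

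The question of the stage comparison was which members differ between early and adult OPC-like cells. In summed counts, 13 members were lower in adult than in early OPC-like cells and 0 were higher (edgeR quasi-likelihood test, Benjamini-Hochberg adjusted p under 0.05 over 9874 genes). Of all genes tested, 3.4% were called lower and 3.05% higher. The filter on low counts let through 32 of the 35 members, and Cdc6, E2f8 and Exo1 were not tested. The fitted change was below 0 for 31 of the 32, with a median log2 fold change of -1.43 against 0.0028 over all genes, and 25 had an unadjusted p under 0.05, as had 22.4% of all genes. Every adult sum lay below every early sum for 22 of the 35 members and for 20 of the 32 tested. For all genes tested that share was 7.24%. Sums held 175, 356, 533 and 501 early cells and 108, 121 and 87 adult cells, or 358216 to 4426997 UMIs, and 3 UMIs corresponded to 0.678 to 8.37 CPM.

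Of the replication fork genes, 4 of 18 were called. Fen1, the flap nuclease, was at 37.8, 36.2, 35.7 and 37.4 CPM in P2 cortex, P7 cortex, P7 SVZ and P15 cortex and at P60 at 7.33 CPM in cortex, 9.93 in grey and 16.7 CPM in white matter. The early libraries lay close together and all adult ones lower, a log2 fold change of -1.93 ± 0.35 (SE, adjusted p = 0.010). Gins2, a subunit of the helicase activator, was at 22.3, 21.9, 37.3 and 29.5 CPM early and 9.78, 6.62 and 11.2 CPM adult, without overlap (-1.85 ± 0.40, adjusted p = 0.020). Clspn, the checkpoint mediator at the fork, was at 13.7, 21.9, 44.7 and 17.1 CPM early and 4.89, 3.31 and 0 CPM adult. Each adult level rested on fewer than 3 UMIs, so Clspn passed the filter on low counts through its early levels alone. Its groups did not overlap either, with P7 SVZ highest (-3.29 ± 0.73, adjusted p = 0.022). Lig1 fell by 1.07 ± 0.30 on the log2 scale (adjusted p = 0.048).

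The Mcm helicase subunits were lower on average but none was called. Mcm5 (-1.20 ± 0.34, adjusted p = 0.051), Mcm6 (-1.48 ± 0.43, 0.057), Mcm3 (-1.51 ± 0.45, 0.062) and Mcm2 (-1.08 ± 0.33, 0.066) were close to the threshold, and Mcm7 (-0.89 ± 0.31, 0.11) and Mcm4 further from it. Mcm4 was at 21.4, 23.7, 50.4 and 18.4 CPM early and 17.1, 36.4 and 16.7 CPM adult. P60 grey matter lay above 3 of the 4 early libraries (-0.45 ± 0.45, adjusted p = 0.60).

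Pcna stood apart from the other members. Its level was 30.03, 66.9, 76.6 and 38.0 CPM early and 44.0, 86.1 and 55.8 CPM adult, with full overlap and P60 grey matter highest (0.03 ± 0.36, 95% interval -0.76 to 0.81, adjusted p = 0.98). Slbp was at 82.4, 83.3, 79.3 and 79.9 CPM early and 61.1, 101 and 61.4 CPM adult (-0.31 ± 0.25, adjusted p = 0.51). Again P60 grey matter was the highest library and the other 2 adult ones were below the early range. Cdc45, the helicase cofactor, was at 7.72, 11.1, 14.9 and 8.24 CPM early and 2.44, 11.6 and 5.58 CPM adult (-0.80 ± 0.54, adjusted p = 0.41), also with P60 grey matter the highest adult library.

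Licensing, nucleotide supply and the remaining genes completed the count. Dtl, the adaptor that marks Cdt1 for destruction, was called (-2.05 ± 0.48, adjusted p = 0.027), whereas Cdt1 was not (-0.92 ± 0.52, 0.32) and had 25.1 CPM in P60 white matter against 4.89 and 4.97 CPM in the other adult libraries. Cdc6 was at 3.43, 3.14, 13.1 and 6.02 CPM early and 0, 1.66 and 0 CPM adult, untested.

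Rrm2 was at 37.8, 71.1, 62.3 and 48.2 CPM early and 7.33, 13.2 and 19.5 CPM adult. All adult libraries were below all early ones (-2.27 ± 0.38, adjusted p = 0.0076). Its partner Rrm1 was called as well (-1.39 ± 0.37, 0.044), and the thymidine genes Tk1 (-1.87 ± 0.53, 0.054) and Tyms (-1.29 ± 0.38, 0.060) were not.

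Pclaf had the lowest adjusted p of the members. It was at 134, 160, 250 and 166 CPM early and 29.3, 3.31 and 39.1 CPM adult, so its lowest early library lay above its highest adult one by more than the range of the adult libraries (-3.23 ± 0.48, adjusted p = 0.0053). Chaf1a, a subunit of the histone chaperone at the fork, was at 26.6, 21.6, 19.2 and 14.3 CPM early and 4.89, 0 and 5.58 CPM adult, without overlap (-2.93 ± 0.67, 0.024). Here too each adult level rested on fewer than 3 UMIs, and Chaf1a passed the filter through its early levels alone. Its partner Chaf1b (-2.35 ± 0.58, 0.031), Uhrf1 (-1.71 ± 0.47, 0.049) and the uracil glycosylase Ung (-1.58 ± 0.44, 0.04998) were also called, while Hells (-1.21 ± 0.45, 0.13) was not. E2f1, an activating E2F, fell as well (-2.30 ± 0.61, 0.041).

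The count of 13 depended on the libraries. It was 5, 8, 8 and 19 without P2 cortex, P7 cortex, P7 SVZ or P15 cortex, and with an adult library left out it was 4 (P60 white matter), 2 (P60 cortex) and 1 (P60 grey matter). The share of all genes called lower moved as well. It was 1.4, 1.82, 3.71 and 6.73% with an early library left out and 1.01, 0.63 and 0.0531% with an adult one left out, in the same order. Pclaf alone was called under all 11 alternatives.

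**Figure D2:**
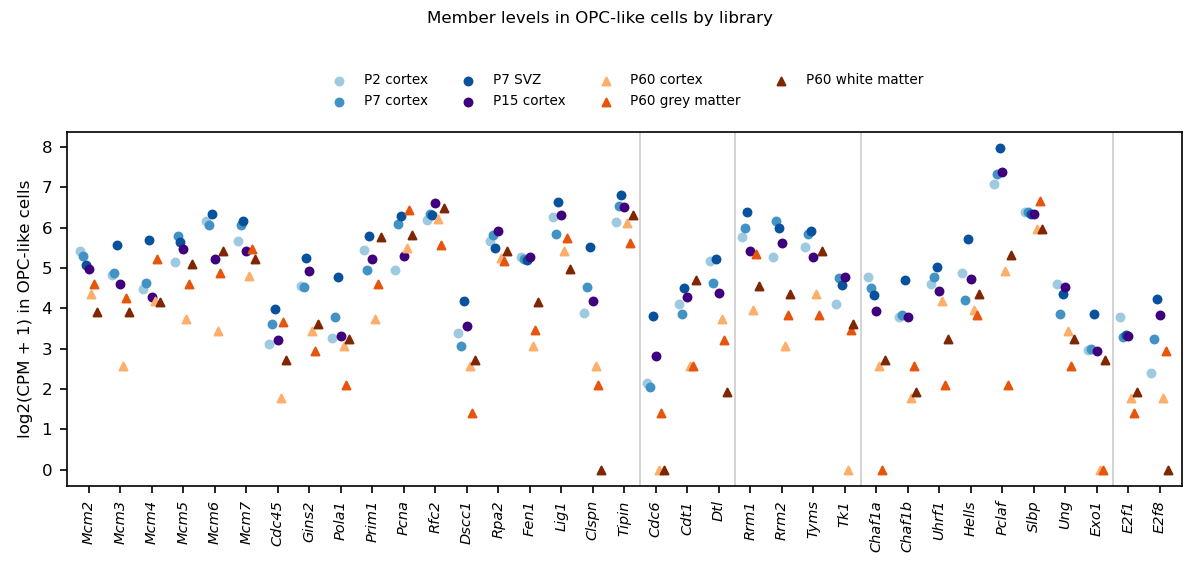
Level of each member in summed OPC-like cells, as log2(CPM + 1) on the y axis, with members on the x axis in order of role (grey lines separate roles). Circles are the 4 early libraries and triangles the 3 adult ones. Pclaf, Rrm2 and Fen1 show adult triangles below all circles, and for Pcna the triangles lie among or above the circles. For Slbp and Mcm4 the P60 cortex and P60 white matter triangles lie below all circles. The P60 grey matter triangle lies above the circles for Slbp and among them for Mcm4.

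A summed level mixes how many cells replicate with how much RNA each holds. OPC-like cells with 0 mitotic UMIs among 2000 were therefore compared alone (132, 207, 317 and 361 early and 78, 89 and 54 adult cells). Here 17 members passed the filter and 0 were called by edgeR or DESeq2, which called 1.67% of 9077 genes and 2.54% of genes lower. The 18 untested members included all 3 licensing genes, both E2F genes and 6 of 8 genes of chromatin copying and repair. Unadjusted, 2 of the 17 had a p under 0.05, where 18.1% of all genes had one. The fitted change was below 0 for 15 of the 17 and for 4568 of the 9077 genes, and the members' median log2 fold change was -0.68. Recovery was not simulated for this comparison, so the 0 calls do not show equal levels. Fen1 was at 16.9 ± 1.497 CPM (SD, n = 4) in early and 7.23 ± 2.80 CPM (n = 3) in adult cells, without overlap (-1.35 ± 0.47, adjusted p = 0.13). Pcna was at 24.6 ± 6.57 and 43.2 ± 22.01 CPM (0.66 ± 0.36, adjusted p = 0.37). Pclaf, untested here, was at 8.70 ± 2.92 and 2.04 ± 2.04 CPM, without overlap.

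In neuroblast-like cells, 0 of the 35 members were called between stages, as were 0.0% of 9553 genes by edgeR. Unadjusted, 0 members had a p under 0.05 by edgeR, where 4.62% of all genes had one. DESeq2 also called 0 members, where it called 0.0314% of genes lower. Fitted changes ran from -0.79 to 0.46 with a median of -0.29, and every member overlapped between stages. Of all genes tested, 7.42% had every adult sum below every early sum. Pclaf was at 207, 656, 650 and 453 CPM in P2 cortex, P7 cortex, P7 SVZ and P15 cortex and at 546 and 501 CPM in P60 cortex and white matter. The adult libraries lay between the lowest and highest early ones (0.09 ± 0.38, 95% interval -0.76 to 0.94). Rrm2 was at 77.3, 494, 221 and 258 CPM early and 163 and 250 CPM adult, within the early range too. With clusters rebuilt on all variable genes the median was -1.45, also with 0 calls. An unplanned edgeR run used P7 cortex, P15 cortex, P60 cortex and P60 white matter alone. It also called 0 members, but 17 of the 35 had an unadjusted p under 0.05, as had 9.91% of 8798 genes. The result in this class thus depended on the libraries used. On simulated counts this comparison recovered 2.02% of 2-fold and 57.1% of 4-fold changes.

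In microglia-like cells, 30 members were tested and 0 were called by edgeR, as were 0.0209% of 9562 genes for lower levels. Unadjusted, 26 of the 30 had a p under 0.05, as had 1247 of the 9562 genes, and DESeq2 called 18 lower, where it called 2.26% of 9532 genes lower. Pclaf was at 205, 191, 136 and 0.449 CPM in P2 cortex, P7 cortex, P7 SVZ and P15 cortex and at P60 at 1.38 CPM in cortex, 0.378 in grey and 5.03 CPM in white matter. The P15 level was among the adult ones, far below the other early libraries. Rrm2 also had its P15 level beside the adult ones, at 75.9, 78.7, 35.3 and 0 CPM early and 1.04, 0.756 and 7.54 CPM adult. Without P15 cortex 25 members were called lower, where 4.16% of genes were.

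In microglia-like cells Slbp, Pcna and Cdt1 had fitted log2 fold changes above 0, of 0.76 ± 0.41, 0.32 ± 0.69 and 0.24 ± 0.77, none called. The 3 had their highest adult level in P60 grey matter. Slbp was at 205 CPM there (1628 UMIs) and at 87.4 and 91.8 CPM in P60 cortex and white matter. Pcna was at 127 CPM (1004 UMIs) against 26.3 and 32.1 CPM, and Cdt1 at 38.0 CPM (301 UMIs) against 2.76 and 6.29 CPM. In the same cells Rrm2 was at 0.756 CPM (6 UMIs) and Tk1 at 0.378 CPM. The white to grey matter ratio was 0.45 (95% interval 0.37 to 0.53) for Slbp, 0.25 (0.19 to 0.34) for Pcna and 0.17 (0.08 to 0.31) for Cdt1, and 9.97 (3.46 to 32.4) for Rrm2. These 3 were the members whose interval lay below 1, and it lay above 1 for 10 members, among them Pclaf (13.3, from 8 and 3 UMIs), Tyms (2.74) and Rfc2 (1.498). Over all members the median ratio was 1.42. No such ratios were computed for other genes, so these counts have no share over all genes beside them.

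The same library was also high for Slbp and Pcna in 2 oligodendrocyte lineage classes. Mature oligodendrocyte-like cells of P60 grey matter had 104 CPM of Slbp and 111 CPM of Pcna, against 14.9 to 24.6 and 18.4 to 46.1 CPM in the other libraries with that class. OPC-like cells had the levels of 101 and 86.1 CPM given above. Cdt1 did not share this, at 0 CPM in mature oligodendrocyte-like and 4.97 CPM in OPC-like cells of P60 grey matter. Microglia-like cells were the class with the most calls in that library, and whether their RNA adds to the Slbp and Pcna of other classes was not tested.

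Astrocyte-like cells gave 13 tested members and 0 calls between stages by edgeR or DESeq2, which called 0.0189% of 10578 genes and 2.39% of genes lower. Unadjusted, 1 member had a p under 0.05 by edgeR, where 20.3% of all genes had one. Tipin was at 42.2 ± 11.5 CPM (SD, n = 3) early and 20.7 ± 7.56 CPM (n = 3) adult, without overlap (-1.19 ± 0.38, adjusted p = 0.16). Rrm2, not tested, was at 34.3 CPM in P7 cortex, 6.31 in P7 SVZ and 2.88 CPM in P15 cortex, and at 0.715, 0 and 3.67 CPM at P60, so P7 cortex stood above the rest. E2f1 did not follow it, at 12.4, 1.80 and 13.1 CPM early and 11.1, 11.6 and 3.67 CPM adult. In endothelial-like cells Pcna, Rfc2 and Slbp were tested and 0 were called by edgeR or DESeq2, which called 4.45% of 4337 genes and 3.71% of genes lower. Unadjusted, 0 of these members had a p under 0.05 by edgeR, where 25.0% of all genes had one. Without P15 cortex 6 members were called lower in astrocyte-like cells and 1 in endothelial-like cells, where 9.72 and 5.61% of genes were. All 3 early libraries of astrocyte-like cells were mostly in clusters of their own, and the adult ones in cluster 51.

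**Figure D3:**
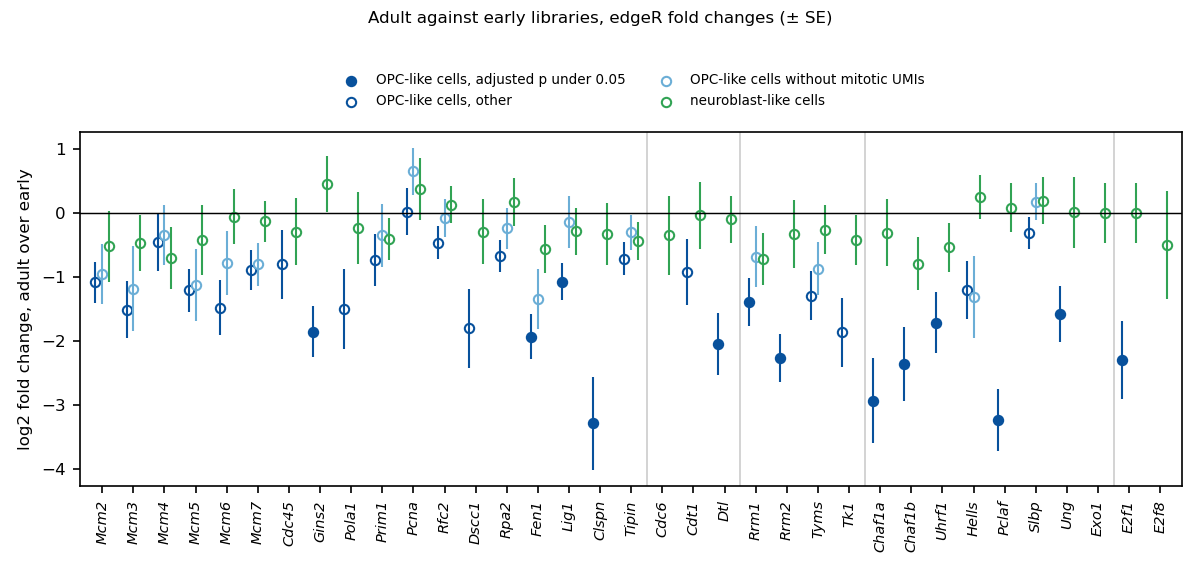
Log2 fold change between adult and early libraries (y axis, bars are SE) for each tested member (x axis, by role) in OPC-like cells, OPC-like cells without mitotic UMIs and neuroblast-like cells. Filled points had an adjusted p under 0.05 and open points did not. All 13 filled points are in OPC-like cells and lie below 0, while neuroblast-like cells lie between -0.79 and 0.46.

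A call in OPC-like cells and its absence in another class is no difference between the classes, so the difference itself was tested, with the library as a block since both classes come from the same libraries. Against astrocyte-like cells, 0 of 35 members differed in their stage change (0.0592% of 13508 genes had a lower change in OPC-like cells). Unadjusted, 0 members had a p under 0.05, where 13.9% of all genes had one. On simulated counts this test recovered 0% of 2-fold and 35.1% of 4-fold differences, so the 0 does not show equal stage changes. Against microglia-like cells, 0 of 35 differed (0.0241% of 12466 genes had a higher change in OPC-like cells). Unadjusted, 4 of the 35 (Tipin, Mcm4, Mcm7 and Slbp) had a p under 0.05, a share near the 10.9% of all genes. Without P15 cortex 4 members had a higher change in OPC-like cells, where 1.44% of genes had. No such test was run against neuroblast-like cells.

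The next comparison asked which members go with mitotic genes in the same cells. Early OPC-like cells with at least 2 mitotic UMIs (22, 84, 136 and 73 cells in P2 cortex, P7 cortex, P7 SVZ and P15 cortex) were set against cells with 0, within each library. All 35 members were higher with the call, where 12.3% of 10284 genes were, and the median log2 fold change was 2.49. Every member was higher in 4 of 4 libraries, and the 35 calls held under all 8 alternatives. Cells with the call were deeper, with median UMIs of 8440 to 10174.5 against 5370 to 7639.

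The size of the rise was unequal among the members. Tk1, the salvage kinase for thymidine, went from 0.605 ± 0.423 to 90.7 ± 23.5 CPM (SD, n = 4), a log2 fold change of 6.81 ± 0.29 (SE). Pclaf went from 8.70 ± 2.92 to 663 ± 101 CPM (6.24 ± 0.13) and Rrm2 from 6.63 ± 2.55 to 194 ± 18.0 CPM (4.92 ± 0.16). Next came the nuclease Exo1 (4.25 ± 0.40), Cdc6 (3.90 ± 0.41), Clspn (3.88 ± 0.22) and E2f1 (3.88 ± 0.36). The smallest rises were in Mcm7, from 38.8 ± 3.86 to 95.7 ± 32.7 CPM (1.36 ± 0.14), Rfc2 (1.45 ± 0.12), Mcm4 (1.497 ± 0.18) and Slbp (1.498 ± 0.12). Pcna rose by 2.26 ± 0.14, from 24.6 ± 6.57 to 118 ± 43.5 CPM.

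In neuroblast-like cells of 5 libraries all 35 members were again higher with the call, where 20.2% of 8705 genes were, with a median of 2.30. The gap in depth was wider here, with median UMIs of 9499 to 12353 with the call and 2542 to 4399 without. Tk1 had the largest change (5.005 ± 0.29), followed by E2f8 (4.79 ± 0.60), Pclaf (4.77 ± 0.20), Clspn (4.26 ± 0.27) and Rrm2 (4.03 ± 0.21). Ung had the smallest, from 34.8 ± 26.2 to 52.4 ± 21.5 CPM (0.76 ± 0.21, adjusted p = 0.0062), higher in 5 of 5 libraries although the ranges overlapped. In astrocyte-like cells only P7 cortex had enough cells, 97 with the call and 889 without, so no test was made. There Rrm2 was at 249 against 11.9 CPM, Pclaf at 169 against 4.89 CPM and Tk1 at 90.6 against 2.12 CPM.

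**Figure D4:**
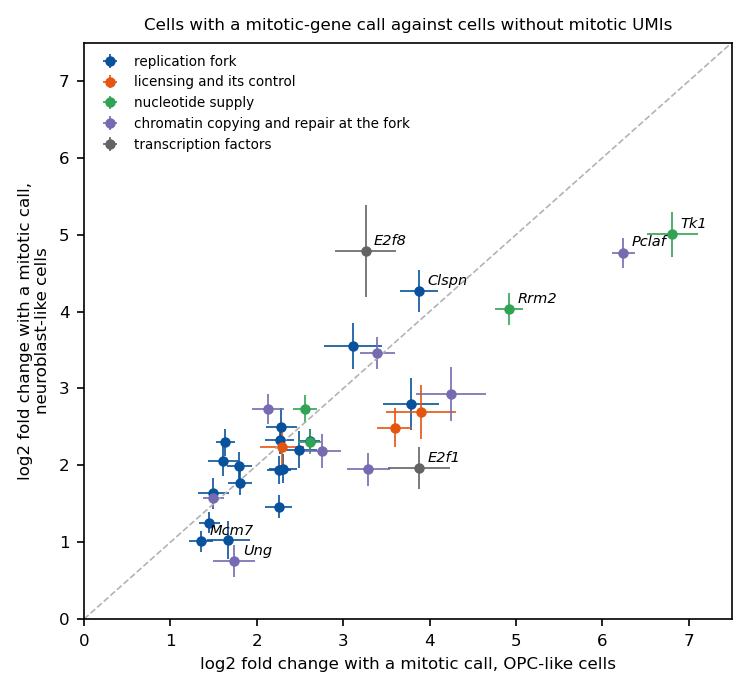
Log2 fold change of each member with a mitotic-gene call in OPC-like cells (x axis) and in neuroblast-like cells (y axis), with SE bars and colours by role. The dashed line marks equal change. All 35 points are above 0 on both axes, with Tk1 and Pclaf at the top in OPC-like cells (6.81 and 6.24) and Ung lowest in neuroblast-like cells (0.76).

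Cells were further split by mitotic UMIs among 2000 (0, 1, 2 to 4, and 5 or more) in 3 libraries per class. From 2 to 4 to 5 or more UMIs, 14 members were lower in 3 of 3 OPC-like libraries, 8 were higher in 3 of 3 and the other 13 were mixed. The 14 were Mcm2 to Mcm7, Cdc6, Cdt1, Chaf1b, Dscc1, Hells, Pola1, Prim1 and Ung, and the 8 were Tk1, Tyms, Rrm1, Rrm2, Pclaf, Rfc2, Rpa2 and E2f8. In neuroblast-like cells 9 were lower and 7 higher in 3 of 3. Both classes shared 5 of the lower members (Cdt1, Chaf1b, Mcm2, Mcm3, Ung), which is 35.7% of the OPC-like and 55.6% of the neuroblast-like list, and 6 of the higher ones (Tk1, Tyms, Rrm1, Rrm2, Pclaf, E2f8), or 75.0% and 85.7% of those lists. All 4 nucleotide supply genes were among these 6. In neural precursor-like cells 20 were lower and 4 higher in 3 of 3. Only Cdt1, Mcm2, Mcm3 and Ung were lower, and E2f8, Pclaf and Rrm2 higher, in 3 of 3 libraries of all 3 classes. Pola1 was higher in 3 of 3 neural precursor-like libraries and lower in 3 of 3 OPC-like ones, and Rfc2 the reverse. Rpa2 went opposite ways, higher in 3 of 3 OPC-like and lower in 3 of 3 neuroblast-like libraries. These are descriptions without a test, and the smallest bins held 18 to 23 cells. Directions were counted for the members only. The share of all genes that moved 1 way in 3 of 3 libraries, or in several classes, is therefore not known.

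Ung, which removes uracil from DNA, had the clearest peak. In OPC-like cells its mean was 9.28, 27.1, 63.3 and 26.0 CPM over the 4 bins, and the last step went from 52.9 to 20.1 CPM in P7 cortex, 64.9 to 22.3 in P7 SVZ and 72.0 to 35.7 CPM in P15 cortex. In neuroblast-like cells the means were 30.1, 58.9, 127 and 30.8 CPM, so the last bin was back at the first. Mcm2 had the same shape at a higher last bin, with 20.2, 38.0, 99.6 and 47.1 CPM in OPC-like cells. Pclaf went on rising, with 8.41, 73.3, 358 and 755 CPM, and Rrm2 likewise with 6.84, 21.6, 108 and 228 CPM. Cells were ordered here by their mitotic RNA, not by a measured cell cycle time.

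**Figure D5:**
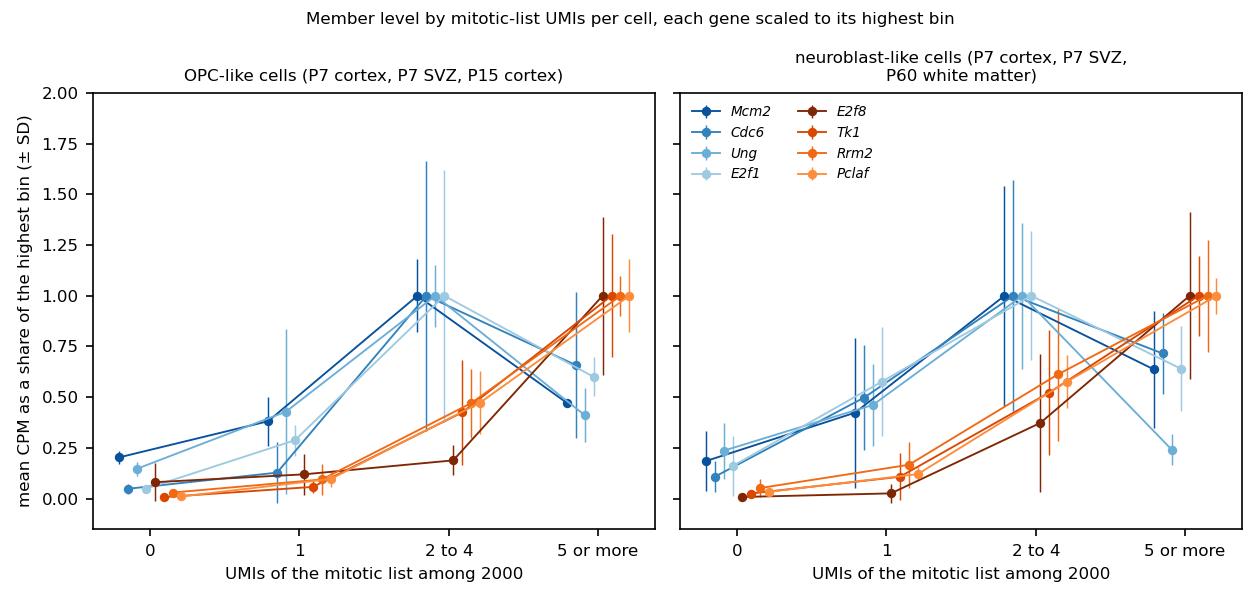
Mean level (± SD over 3 libraries) of 8 members by mitotic UMIs per cell (x axis), each as a share of its highest bin (y axis), in OPC-like and neuroblast-like cells. In OPC-like cells Mcm2, Cdc6, Ung and E2f1 (blue) are highest at 2 to 4 mitotic UMIs and E2f8, Tk1, Rrm2 and Pclaf (orange and brown) at 5 or more.

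E2f8, an E2F that represses its targets, differed from the other members in which cells held it. In OPC-like cells it was at 3.68, 5.44, 8.57 and 45.4 CPM over the bins, and the last step went from 4.81 to 30.9 CPM in P7 cortex, 11.3 to 65.1 in P7 SVZ and 9.60 to 40.2 CPM in P15 cortex. E2f1, its activating relative, was at 1.63, 9.59, 33.3 and 19.999 CPM. E2f8 was also the only member with its highest mean in committed precursor-like cells, at 21.4, 20.04 and 19.1 CPM in P7 cortex, P7 SVZ and P15 cortex and 36.6 and 28.5 CPM in P60 cortex and white matter (10 and 13 UMIs). That mean of 25.1 ± 7.41 CPM (SD, n = 5) overlapped with 19.96 ± 5.02 CPM (n = 4) in neural precursor-like cells. E2f8 was at 7.55 CPM on average in OPC-like cells and at most at 0.21 CPM in mature oligodendrocyte-like cells. In the same committed precursor-like cells Pclaf was at 0 to 9.11 CPM, Rrm2 at 0 to 4.46 CPM and E2f1 at 0 to 5.65 CPM. OPC-like cells without mitotic UMIs held 8.51 CPM of E2f8 in P15 cortex (18 UMIs) and 1.28 and 1.25 CPM in P7 cortex and P7 SVZ.

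Regions were compared with 1 library a side, so the intervals cover counting error only and no test was made. Ratios were computed for the members only, so the share of all genes with an interval off 1 is not known. At P7, OPC-like cells of SVZ were above those of cortex for 19 members by the 95% interval of the ratio and below for 1, with a median ratio of 1.34. Hells had a ratio of 2.96 (2.17 to 4.10), Cdc6 of 4.18 (2.06 to 9.59), Clspn of 2.04 (1.53 to 2.75) and Pclaf of 1.56 (1.40 to 1.74). Rpa2 was the 1 below, at 0.80 (0.64 to 0.99), and the interval of Rrm2 held 1 (0.88, 0.73 to 1.06). In the 3 other classes compared the order was mostly the reverse. SVZ was below cortex for 28 members in neuroblast-like cells (median ratio 0.58), 26 in astrocyte-like cells (0.39) and 18 in microglia-like cells (0.67). Except for microglia-like cells, which shared cluster 2, the libraries sat in different clusters: 45 for SVZ and 6 and 26 for cortex in OPC-like cells, 9, 41 and 44 against 8, 12 and 24 in neuroblast-like cells, and 35 against 15, 29 and 34 in astrocyte-like cells. The neuroblast-like clusters with the most calls, 9 and 8, had them in 87.7 and 88.7% of cells. Pclaf did not differ in neuroblast-like cells beyond its interval (0.99, 0.94 to 1.05), and Pola1 was higher in SVZ there (1.73, 1.41 to 2.13). Region and mouse strain cannot be told apart in this pair.

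At P60, white matter was above grey matter in OPC-like cells for 5 members, below for 0, and the interval held 1 for 30, with a median ratio of 1.45. The 5 were Prim1 (2.29, 1.09 to 4.93), Rfc2 (1.93), Cdt1 (5.06, 1.26 to 29.0), Tyms (3.16, 1.26 to 8.61) and Pclaf (11.8, 2.71 to 107, from 14 and 2 UMIs). Astrocyte-like cells had no interval off 1 among the 23 members with UMIs. Here too the share over all genes is not known.

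The members' pathway neighbours moved in part with them. Of 62 other replication genes, 51 were tested between stages in OPC-like cells, and 11 were lower and 0 higher, with a median of -0.86. Gmnn, the inhibitor of Cdt1, fell by 2.52 ± 0.53 on the log2 scale (adjusted p = 0.019), Dbf4, which activates the Cdc7 kinase, by 2.48 ± 0.51 (0.017) and the histone chaperone Asf1b by 2.31 ± 0.55 (0.027). Of 24 cell cycle regulators, 22 were tested, with 4 lower (Cdk1, Ccna2, Cdk6 and Cdk4) and 0 higher. With the mitotic-gene call in OPC-like cells, 48 of 60 other replication genes were higher and 1 lower, and 13 of 23 regulators were higher. In OPC-like cells the sum of OPC markers had a median of 67.6 per 10000 UMIs in the 431 cells with a call and 89.9 in the 1383 without. Neuroblast markers were at 1.51 and 1.19, astrocyte markers at 2.28 and 2.59, and microglia markers at 0 in both. Of the cells without a call, 209 had 2 member UMIs, 1 below the threshold.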

How the data were processed

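The authors deposited raw UMI counts per gene and barcode for 7 libraries, which Cell Ranger 3.0.2 wrote, per the file headers. The genome build was mm10, according to the submitters' processing notes. Whether counting used strand is not given in the sources used here. By GENCODE M21, 0 members overlap exons of another counted gene on the same strand and 9 on the opposite strand (Cdc45, Chaf1a, Dscc1, Fen1, Gins2, Lig1, Mcm7, Rfc2, Tk1), whose reads could then not be told apart from that gene's. The counts were used as deposited. Cells were kept with at least 500 genes, at most 10% mitochondrial UMIs and no doublet call (scrublet in scanpy 1.11.5, expected rate 0.06, which marked 305). They were scaled to 10000 UMIs, logged and clustered (2000 variable genes, 30 components, 15 neighbours, Leiden resolution 1.5, 55 clusters) without 253 replication, cycle, mitotic and histone genes. A cluster was named when at least 3 markers, and more than 50% of the list, were raised 2-fold and detected in 10% of cells, unless its 10 leading genes held more markers of another class (2 clusters, 273 cells) or its depth was low with no own marker among them (median UMIs under 1/3 of its libraries' median, 2 clusters, 377 cells). Python 3.11.15, numpy 2.4.6, scipy 1.17.1 and pandas 2.3.3 were used.

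Counts were summed per class and library with at least 20 cells (15 for mitotic-gene sums), and CPM is a gene's UMIs scaled by the total of its sum. Tests used edgeR 4.0.16 in R 4.3.3 (TMM, filterByExpr, quasi-likelihood F test, Benjamini-Hochberg at 0.05 over all genes), with the library as a block for the mitotic-gene call and for the differences between classes. DESeq2 1.42.0, median-ratio scaling, no filter, leaving out each library, other thinning depths and clustering on all variable genes were alternatives. SE is the absolute log2 fold change over the square root of F. Tested on simulated data, the stage test in OPC-like cells recovered 11.7% of 2-fold and 72.9% of 4-fold changes, and the mitotic-gene test 82.5 and 99.0%. Shares carry exact binomial, sums exact Poisson and ratios exact conditional 95% intervals.

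All 35 members may be named. Values in every library go to the 6 with the lowest and the 4 with the highest adjusted p between stages in OPC-like cells and to members that go against the rest, and at most 6 genes of other lists are named. The members, lists and class markers were chosen with earlier results of these data known.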

Additional observations from a re-analysis of the deposited data

Results flagged for a closer look

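In groups of 4 libraries, 7 of 108 groups of member levels held 1 library far from the other 3, where chance gives about 1 in 20. The count is thus near what chance gives, and the 7 are listed as values only. In early OPC-like cells P7 SVZ was the highest for Mcm4 (50.4 CPM, others 18.4 to 23.7), Chaf1b (25.1 CPM, others 12.7 to 13.2) and Exo1 (13.6 CPM, others 6.66 to 6.97), and P2 cortex for E2f1 (12.9 CPM, others 8.71 to 9.04). In early neuroblast-like cells P2 cortex was the lowest for Tyms (61.8 CPM, others 177 to 195). In early microglia-like cells P15 cortex was the lowest for Mcm3 (13.5 CPM, others 80.4 to 88.0) and Lig1 (8.07 CPM, others 66.7 to 76.5).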

How the results depend on the processing

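Without the filter on low counts, 21 members were called between stages in OPC-like cells, 1 in astrocyte-like, 14 in microglia-like and 3 in endothelial-like cells. Of all genes, 3.52, 2.6, 0.944 and 3.54% were called lower in these classes, so the 1 in astrocyte-like cells is near the share of all genes. In the difference between OPC-like and microglia-like cells 1 member was called, where 1.21% of genes were higher. DESeq2 called 18 in microglia-like cells, where 2.26% of genes were called lower. Leaving out 1 library at a time gave 1 to 19 called members in OPC-like, 0 to 6 in astrocyte-like and 0 to 25 in microglia-like cells. It gave 0 to 4 in the OPC-like against microglia-like difference. The share of all genes called lower ran over 0.0531 to 6.73%, 0 to 9.72% and 0.019 to 4.16% in the 3 classes. In the difference, 0 to 1.44% of genes were called higher. Counts in neuroblast-like cells, in OPC-like cells without mitotic UMIs and in the OPC-like against astrocyte-like difference were 0 under every alternative run. Of the single members between stages in OPC-like cells, 4 of the 212 values with a library left out and 1 of the other 128 changed sign: Pcna was at -0.028 without the filter, at -0.14 without P2 cortex, at -0.14 without P15 cortex and at -0.34 without P60 grey matter, and Mcm4 at 0.038 without P7 SVZ. With a library left out, Pcna ran from -0.34 to 0.27 and Mcm4 from -1.004 to 0.038. The cause was not tested.

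Mean shares with a call depend on the threshold and depth by construction. For at least 2 UMIs, at least 5 UMIs, thinning to 3000 UMIs and no thinning, the OPC-like share was 36.4, 17.8, 33.6 and 54.4% early and 26.9, 6.00, 15.1 and 27.6% adult. The adult neuroblast-like share was 56.2, 24.2, 61.9 and 52.0%, and the adult astrocyte-like one 6.80, 0, 3.18 and 3.31%. For at least 2 UMIs and no thinning, early neuroblast-like cells had 55.0 and 55.9% and early astrocyte-like cells 12.3 and 29.9%. Early microglia-like cells had 49.0% without thinning, and adult ones 18.7% for at least 2 UMIs, 12.9% at 3000 UMIs and 26.0% without thinning. Without the 6 broad members the shares were 20.2% (OPC-like, early), 6.32% (OPC-like, adult), 25.9% (neuroblast-like, adult), 0.0391% (astrocyte-like, adult) and 0.576% (microglia-like, adult). Clustering on all variable genes gave 24.9% in adult neuroblast-like cells. No paired analysis was possible between stages because each library belongs to 1 stage and the labels pair none; comparisons within libraries had the library as a block. The mitotic-gene test was not run in astrocyte-like cells, where 1 library had enough cells.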
